A study of Mus musculus with 15 samples.

Results

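The genes described here are *Ret*, *Elavl4*, *Uchl1*, *Chat*, *Vip*, *S100b*, *Sox10* and *Gfap*, 8 transcripts that mark the neurons and glia of the gut wall, among 32544 genes in a count table of mouse colon. They were chosen by symbol as enteric neuron and glia genes, and their levels are given library by library because the amount of muscle wall in a piece of colon varies. The study measured total RNA from colon by bulk sequencing, after colitis induced with dextran sulfate sodium (DSS) or in untreated mice, in 3 genotypes of *Tert*, the gene of the catalytic subunit of telomerase. In all, 8 of 8 genes passed the filter on low counts, as did 17477 genes of the whole table.

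The DSS groups held 3 libraries each from TERT-/- mice (KO), TERTVAA mice, whose telomerase is enzymatically inactive (VAA), and TERT+/+ mice (WT). The untreated groups held 2 libraries each of KO, VAA and WT. DSS mice drank 3% DSS for 4 days and plain water for the next 4, and the harvest was on day 8. The mice were 8 to 12 weeks old. The labels do not say how the KO or VAA allele was built, nor whether the libraries of a group came from separate animals. The p-values thus measure the spread between these libraries, which may be technical except where libraries of a group differ in sex.

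The enteric nervous system is a network of neurons and glia that lies in ganglia between the muscle layers of the gut and beneath the mucosa, and it arises from neural crest cells that migrate into the developing gut. Excitatory motor neurons release acetylcholine and tachykinins onto smooth muscle, and inhibitory motor neurons release nitric oxide and vasoactive intestinal peptide. Enteric glia surround the neurons, send processes into the mucosa, and can raise GFAP when they react to inflammation. In RNA from whole tissue, fewer neurons or glia and less RNA per cell cannot be told apart.

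Several libraries stood apart from the rest. Totals ran over 10561247 to 17541584 counts. *Tert* had 0 to 1 counts in the KO libraries, 7 to 29 in the VAA libraries and 23 to 40 in the WT libraries. A Y-linked transcript, *Ddx3y*, put KO untreated replicate 2 and WT untreated replicate 2 apart as male, with 868 and 914 counts, against 5 to 20 in the other libraries. The labels give no sex. The KO untreated pair and the WT untreated pair thus each did not come from 1 animal. Epithelial and smooth muscle genes of the colon wall were present throughout, with 8 epithelial genes summing to 5250 CPM or more and 15 smooth muscle genes to 839 CPM or more in every library (counts per library scaled to a common total). VAA DSS replicate 3 was the shallowest library and had the highest level of 8 of the 8 enteric genes. Values without it are therefore given beside most comparisons of the 8 genes and most list counts that it enters. Fold changes of single genes from the lists, and those relative to smooth muscle, are given with it only. No pair of replicates agreed within counting noise, the lowest chi-square per degree of freedom being 11.6.

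The 8 genes lie on 7 chromosomes of mm10. Positions are those of GENCODE M21 and cover whole genes, exons and introns together. *Ret* spans chr6:118151745-118197718 (minus strand), *Elavl4* chr4:110203722-110351909 (minus) and *Uchl1* chr5:66676091-66687234 (plus). *Chat* spans chr14:32408203-32465989 (minus) and holds *Slc18a3*, the vesicular acetylcholine transporter gene, on the same strand with 0 shared exon bases. *Vip* spans chr10:5639218-5647617 (plus), *S100b* chr10:76253853-76261159 (plus), *Sox10* chr15:79154908-79165240 (minus) and *Gfap* chr11:102887336-102900912 (minus). *Uchl1* shares 295 exon bases with its antisense neighbour *Uchl1os*, and no source used here says whether reads were counted by strand, so reads of that pair may be mixed.

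The 250 bases before the annotated start are shown for a neuropeptide gene, a neuronal RNA-binding protein gene and a glial gene, the first a classic target of cyclic AMP signalling and the last a gene of cells that carry SOX10. They come from RefSeq (GRCm38.p6), which gave a promoter for 6 of the 8 genes. Capitals mark matches, on either strand, to TGACG, the core of a cyclic AMP response element, or to ACAANG, a short SOX motif, and the marked matches do not overlap.
Vip: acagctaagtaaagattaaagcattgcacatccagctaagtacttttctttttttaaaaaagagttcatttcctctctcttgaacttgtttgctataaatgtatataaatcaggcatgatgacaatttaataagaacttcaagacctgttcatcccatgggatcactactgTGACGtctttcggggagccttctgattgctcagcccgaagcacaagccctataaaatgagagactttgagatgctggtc
Elavl4: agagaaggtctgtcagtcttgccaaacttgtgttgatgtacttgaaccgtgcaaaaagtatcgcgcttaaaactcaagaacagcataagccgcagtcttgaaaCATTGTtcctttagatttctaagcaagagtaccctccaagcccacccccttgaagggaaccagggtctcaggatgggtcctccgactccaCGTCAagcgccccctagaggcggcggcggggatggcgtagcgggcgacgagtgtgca
S100b: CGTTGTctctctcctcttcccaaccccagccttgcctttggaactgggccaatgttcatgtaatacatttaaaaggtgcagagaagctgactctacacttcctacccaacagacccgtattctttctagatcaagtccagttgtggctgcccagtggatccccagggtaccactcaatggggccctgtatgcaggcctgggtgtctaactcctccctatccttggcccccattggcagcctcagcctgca
The *Vip* window is chr10:5638968-5639217 (plus strand), the *Elavl4* window, at the first of its listed starts, is chr4:110351912-110352161 (minus) and the *S100b* window is chr10:76253586-76253835 (plus). TGACG was found in 3 of the 6 promoters and in 17.9% of 27025 mouse promoters of the same length. ACAANG was found in 2 of the 6, against 36.6% of all. The full palindrome TGACGTCA was in 0 of the 6, against 1.62% of all. A match of these letters is a description of the sequence and was not tied to binding here.

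The KO DSS libraries were the 3 lowest for 4 of the 5 neuronal genes, *Ret* being the exception, and VAA DSS replicate 3 was the highest library for all 5. All levels are given in CPM, counts scaled to a common library total, and are listed in the order of the replicates. They compare libraries for 1 gene and not genes with each other, since lengths were not corrected.

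*Ret* encodes the receptor tyrosine kinase for ligands of the GDNF family, on which enteric neuron precursors depend. With DSS, *Ret* had 6.12, 6.61 and 9.44 CPM in KO libraries, 50.5, 14.8 and 68.3 in VAA libraries, and 14.9, 17.1 and 21 in WT libraries. Untreated colon gave 10.1 and 5.85 CPM of *Ret* in KO, 10.2 and 12.9 in VAA, and 12.3 and 8.27 in WT. The KO DSS values sat below those of both other DSS groups and overlapped the KO untreated ones, whereas the VAA and WT DSS values lay above all untreated values.

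*Elavl4* encodes HuD, a neuronal RNA-binding protein. After DSS it had 1.86, 0.546 and 1.63 CPM in KO, 5.29, 2.48 and 21 in VAA, and 2.26, 2.68 and 2.65 in WT libraries. Its untreated values were 3.94 and 2.78 CPM in KO, 3.86 and 4.68 in VAA, and 4.17 and 2.49 in WT. The KO DSS libraries were the 3 lowest of all 15, while 1 VAA DSS library lay within the range of the WT ones and the other 2 above it.

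*Uchl1* encodes PGP9.5, a deubiquitinating enzyme widely used as a stain for enteric neurons. It had 1.40, 0.750 and 1.34 CPM in KO DSS, 5.84, 3.35 and 24.3 in VAA DSS, and 3.06, 2.83 and 3.30 in WT DSS libraries. In untreated colon *Uchl1* had 7.63 and 2.64 CPM in KO, 6.65 and 5.02 in VAA, and 8.06 and 3.36 in WT. Again the KO DSS libraries were the 3 lowest, and both untreated KO and WT pairs differed widely within themselves, the male library being the lower of each.

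*Chat* encodes choline acetyltransferase, which makes acetylcholine, and tuft cells of the epithelium also express it. Its counts were few, at 3, 2 and 5 in KO DSS, 12, 14 and 24 in VAA DSS and 9, 8 and 11 in WT DSS libraries. Scaled, these were 0.233, 0.136 and 0.371 CPM in KO, 0.722, 0.809 and 2.30 in VAA, and 0.656, 0.613 and 0.649 in WT. The untreated libraries held 0.711 and 0.713 CPM of *Chat* in KO, 0.930 and 0.936 in VAA, and 0.957 and 0.471 in WT. No KO DSS library reached the level of any other library.

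*Vip* encodes vasoactive intestinal peptide, a relaxant and secretory transmitter. With DSS it reached 3.02, 2.93 and 5.94 CPM in KO, 34.4, 12.9 and 118 in VAA, and 11.2, 29.6 and 15.9 in WT libraries. Without DSS it reached 22.7 and 15.8 CPM in KO, 22.0 and 21 in VAA, and 18.5 and 13.5 in WT. The KO DSS libraries lay below all others, while the VAA and WT DSS ranges overlapped.

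The 3 glial genes differed in how far the DSS groups lay apart. *S100b*, a calcium-binding protein of glia, had 1.32, 1.02 and 1.41 CPM in KO DSS, 1.08, 1.27 and 2.97 in VAA DSS, and 1.31, 0.919 and 1.47 in WT DSS libraries. Its untreated values were 1.62 and 0.785 CPM in KO, 1.57 and 1.79 in VAA, and 1.64 and 1.68 in WT. Its DSS groups overlapped, and VAA DSS replicate 3 alone stood above the rest.

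*Sox10* encodes the transcription factor that keeps neural crest and glial identity. After DSS, *Sox10* had 0.543, 0.614 and 1.04 CPM in KO, 1.86, 1.27 and 7.77 in VAA, and 1.75, 1.76 and 1.24 in WT libraries. Untreated colon held 1.10 and 0.642 CPM in KO, 1.93 and 1.02 in VAA, and 3.48 and 1.75 in WT. The KO DSS values were below those of both other DSS groups but overlapped the KO untreated ones.

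*Gfap* encodes an intermediate filament of glia. With DSS, *Gfap* had 1.16, 0.273 and 1.56 CPM in KO, 4.45, 5.03 and 32.7 in VAA, and 4.59, 7.43 and 2.95 in WT libraries. Its untreated levels were 2.52 and 2.07 CPM in KO, 1.29 and 3.83 in VAA, and 4.24 and 2.29 in WT. After DSS the KO libraries lay below the VAA and WT ones without overlap, and VAA DSS lay above VAA untreated.

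**Figure D1:**
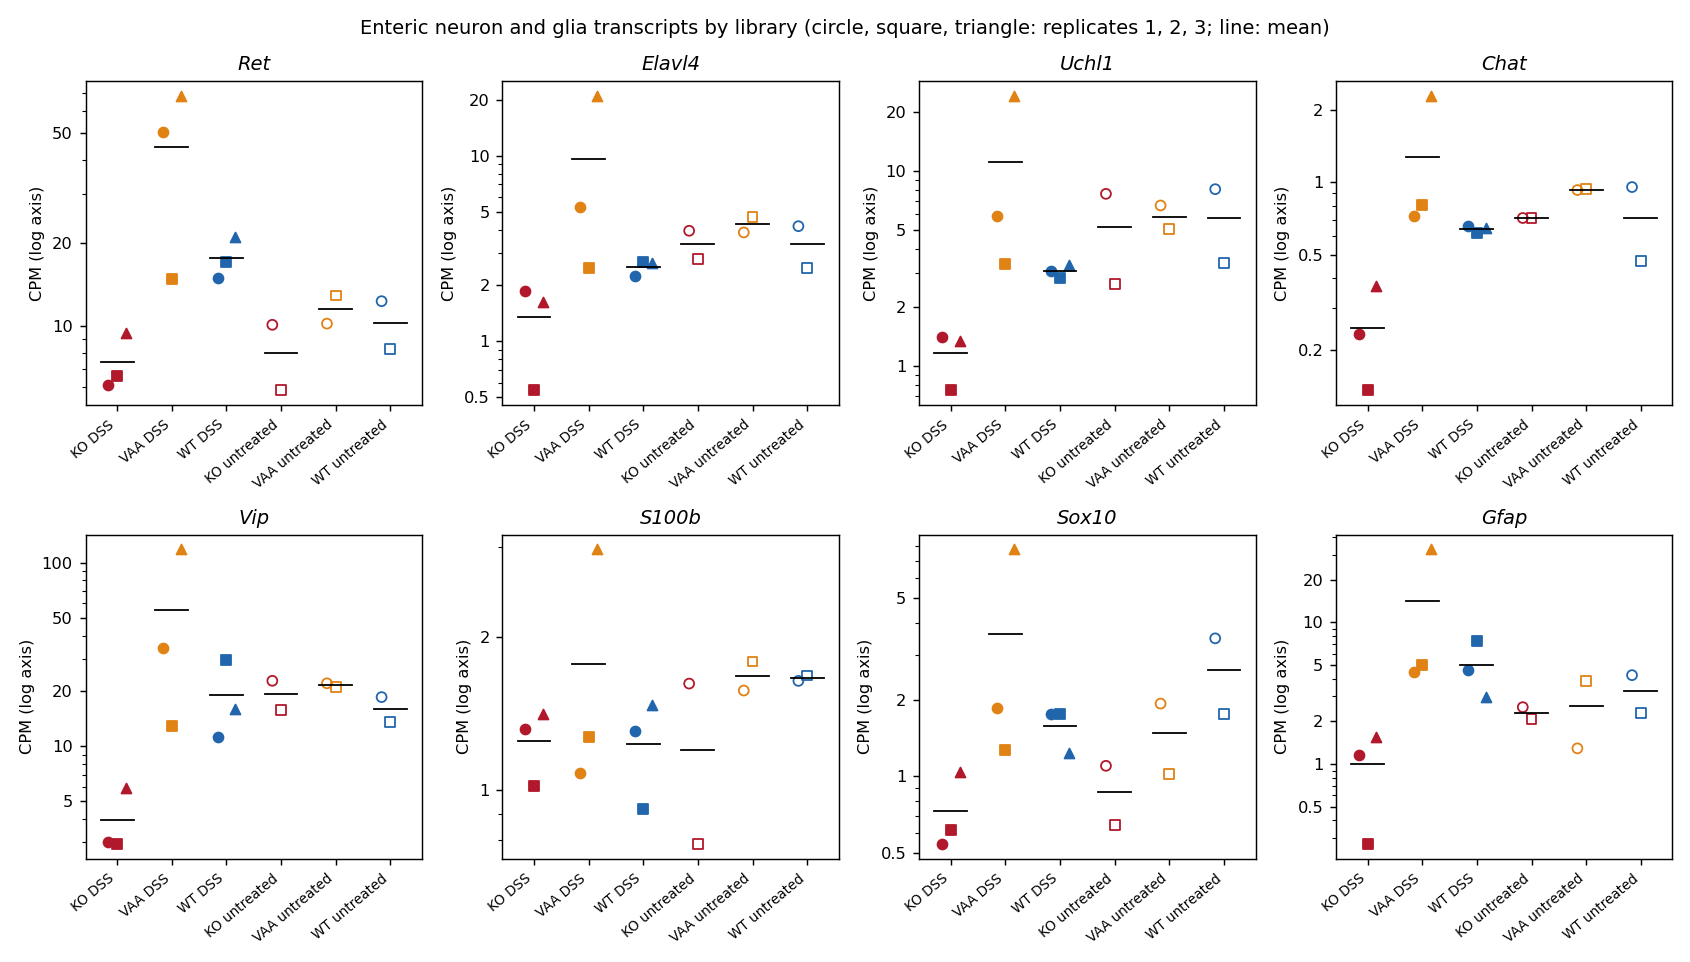
Levels of the 8 enteric genes in every library (CPM, log axis), by genotype and treatment, with replicates as symbols and the group mean as a line. VAA DSS replicate 3 is the highest library for 8 of 8 genes, and the 3 KO DSS libraries are the lowest for 4 of them (*Elavl4*, *Uchl1*, *Chat* and *Vip*).

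The comparison of KO with VAA under DSS sets colon without *Tert* against colon with an inactive enzyme. Of the 8 genes, 7 fell in KO by edgeR's quasi-likelihood test at an adjusted p under 0.05, where 9.41% of all genes tested were called lower and 15.4% either way. The median log2 fold change was -2.70 over the 8 genes and -0.01 over all genes. Likewise, 7 of the 8 had all KO values below all VAA values, against 14.6% of all genes. The neuropeptide gene *Vip* averaged 3.97 ± 1.71 CPM in KO and 55.1 ± 55.5 in VAA (SD, n = 3 each), a log2 fold change of -3.79 ± 0.68 (SE; 13.8-fold lower, edgeR adjusted p = 0.0038). The glial filament gene *Gfap* averaged 0.999 ± 0.659 CPM in KO and 14.1 ± 16.2 in VAA, at -3.80 ± 0.83 (edgeR adjusted p = 0.0094). *Uchl1* fell at -3.24 ± 0.69, *Elavl4* at -2.81 ± 0.66 and *Ret* at -2.59 ± 0.44 on the log2 scale (edgeR adjusted p = 0.0087, 0.013 and 0.003). *Chat* fell at -2.29 ± 0.56 and *Sox10* at -2.26 ± 0.64 (edgeR adjusted p = 0.016 and 0.030). *S100b* did not pass, at -0.47 ± 0.41 with a 95% interval of -1.39 to 0.46 (edgeR adjusted p = 0.53).

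The differences were smaller without VAA DSS replicate 3. In that fit, 5 of the 8 genes fell, against 6.6% of all genes called lower. These were *Vip* at -2.57 ± 0.46, *Gfap* at -2.25 ± 0.57, *Ret* at -2.14 ± 0.41, *Uchl1* at -1.98 ± 0.48 and *Elavl4* at -1.53 ± 0.44 (log2, SE; edgeR adjusted p = 0.0038, 0.022, 0.0054, 0.019 and 0.037). *Chat* then stood at -1.61 ± 0.49 and *Sox10* at -1.08 ± 0.46 (edgeR adjusted p = 0.051 and 0.15), and *S100b* at 0.09 ± 0.37. Without KO DSS replicate 2 the count was 4 (*Ret*, *Uchl1*, *Vip* and *Gfap*), against 4.03% of all genes called lower. When the spread was estimated from these 6 libraries alone, only *Ret* passed, against 1.82% of all genes.

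Set against WT under DSS, KO colon was again the lower group for most of the genes. All KO values lay below all WT values for 7 of the 8 genes, against 19.5% of all genes, *S100b* being the exception. Yet 0 of the 8 passed edgeR's adjusted threshold, where 5.67% of all genes did (2.46% called lower). Of the 8, 4 had an unadjusted p under 0.05, against 21.9% of all genes, and DESeq2 called 3 (*Ret*, *Vip* and *Gfap*), against 10.7%. *Vip* averaged 3.97 ± 1.71 CPM in KO and 18.9 ± 9.57 in WT (SD, n = 3 each), at -2.25 ± 0.66 on the log2 scale with a 95% interval of -3.74 to -0.77 (edgeR adjusted p = 0.062). *Gfap* averaged 0.999 ± 0.659 CPM in KO and 4.99 ± 2.27 in WT, at -2.32 ± 0.82 (95% interval -4.18 to -0.46, edgeR adjusted p = 0.12). The others ran from -1.40 for *Uchl1* to 0.01 for *S100b* (edgeR adjusted p = 0.10 to 1). The spread in this test was shared by all 6 groups, VAA included. Without VAA DSS replicate 3, a library of neither group, 3 of the 8 fell, namely *Vip* (adjusted p = 0.005), *Gfap* (0.012) and *Ret* (0.04) by edgeR, where 8.7% of all genes were called lower, and without VAA DSS replicate 2 the count was 2, against 3.42% of all genes.

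VAA and WT colon under DSS were not separated for any of the 8 genes by edgeR's adjusted test, where 1 gene of all tested (0.00572%) was called. Unadjusted, 4 of the 8 had p under 0.05, against 16.3% of all genes, and DESeq2 called 0, against 0.226% of all genes. Differences were positive for 8 of 8, from 0.47 ± 0.41 for *S100b* to 1.89 ± 0.62 for *Elavl4* on the log2 scale (edgeR adjusted p = 0.28 to 0.54). *Uchl1* and *Chat* had all VAA values above all WT values, a pattern met by 8.76% of all genes, and the other 6 overlapped. Without VAA DSS replicate 2, 4 genes rose in VAA by edgeR's test (*Ret*, *Elavl4*, *Uchl1* and *Vip*), where 4.87% of all genes were called either way. When VAA DSS replicate 3 was left out instead, the median over the 8 was 0.28, against 1.41 with it, and edgeR called 0. Unadjusted, 1 of the 8 then had p under 0.05, against 5.58% of all genes. In that fit *Ret* was at 0.88 ± 0.39 and *Elavl4* at 0.61 ± 0.41, and *S100b*, *Gfap* and *Sox10* were at -0.09, -0.07 and -0.01.

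**Figure D2:**
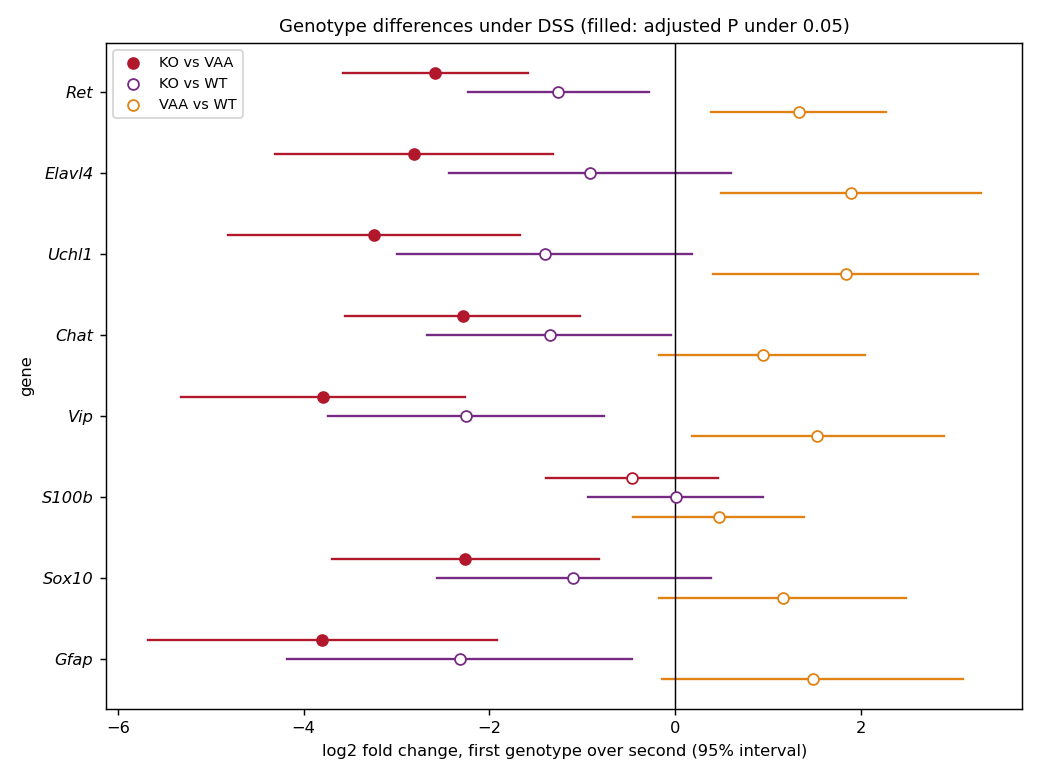
Log2 fold changes between genotypes under DSS for each of the 8 genes, with 95% intervals. Filled points passed edgeR's adjusted threshold of 0.05, and 7 of the 8 KO against VAA points are filled, from -2.26 for *Sox10* to -3.80 for *Gfap*, with *S100b* open at -0.47.

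The effect of DSS itself was then read within each genotype. In KO, 0 of the 8 genes passed edgeR's adjusted threshold, where 10.7% of all genes did. Of the 8, 3 had an unadjusted p under 0.05, against 26.6% of all genes, and DESeq2 called 2 (*Uchl1* and *Vip*), against 14.3%. *Vip* stood at -2.28 ± 0.70 on the log2 scale (4.85-fold lower in DSS, 95% interval -3.86 to -0.69, edgeR adjusted p = 0.054) and *Uchl1* at -2.15 ± 0.74 (edgeR adjusted p = 0.081). *Elavl4*, *Uchl1*, *Chat*, *Vip* and *Gfap* had all KO DSS values below both KO untreated values, a pattern met by 24% of all genes. *Ret*, *S100b* and *Sox10* overlapped, at -0.11 ± 0.49, 0.05 ± 0.47 and -0.26 ± 0.75. Without VAA DSS replicate 3 in the shared spread, *Elavl4*, *Uchl1*, *Chat* and *Vip* passed edgeR's test, each lower in DSS (adjusted p = 0.048, 0.0074, 0.049 and 0.0042), where 21.6% of all genes were called either way. The count was 2 without VAA DSS replicate 2, where 13.2% were called.

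In VAA, *Ret* was the gene of the 8 that passed, higher in DSS by 1.95 ± 0.49 on the log2 scale (3.86-fold, edgeR adjusted p = 0.013), where 20.4% of all genes were called and 10.9% were called higher. It was called without VAA DSS replicate 3 as well, at 1.51 ± 0.45 (edgeR adjusted p = 0.024), but not without VAA untreated replicate 1 or 2 (edgeR adjusted p = 0.12 and 0.068). *Gfap* stood at 2.45 ± 0.88 (edgeR adjusted p = 0.067), and *Ret* and *Gfap* had all DSS values above both untreated ones, as did 21% of all genes. *Gfap* was at 0.90 ± 0.59 without VAA DSS replicate 3. The other 6 ran from 0.04 for *S100b* to 1.35 for *Vip*, and their DSS and untreated values overlapped. These 6 ran, without VAA DSS replicate 3, from -0.51 for *S100b* to 0.13 for *Vip*, and *S100b*, *Uchl1*, *Chat* and *Elavl4* changed sign. In WT, 0 of the 8 passed, where 26.6% of all genes did, and 0 had an unadjusted p under 0.05, against 38.9% of all genes. DESeq2 called 0 of the 8, against 26.8% of all genes. *Ret* was at 0.78 ± 0.48 in WT, with all DSS values above both untreated ones, while *Uchl1*, at -0.89 ± 0.69, and *S100b*, at -0.42 ± 0.45, had all below (edgeR adjusted p = 0.25, 0.36 and 0.52). Non-overlap of this kind was met by 31.9% of all genes above and 31.1% below.

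Averaged over the 3 genotypes, *Ret* was 1.83-fold higher with DSS (log2 0.87 ± 0.28, edgeR adjusted p = 0.022), where 42.6% of all genes were called and 22.5% were called higher. The other 7 did not pass, from -0.71 ± 0.40 for *Uchl1* to 0.62 ± 0.51 for *Gfap*. All DSS libraries were female by *Ddx3y*, and the 2 male libraries were untreated. With sex as a term in the fit the adjusted p of *Ret* was 0.13, and without both male libraries it was 0.15, by edgeR. It also missed the threshold when VAA untreated replicate 1 or either male library alone was left out (edgeR adjusted p = 0.065 to 0.07).

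**Figure D3:**
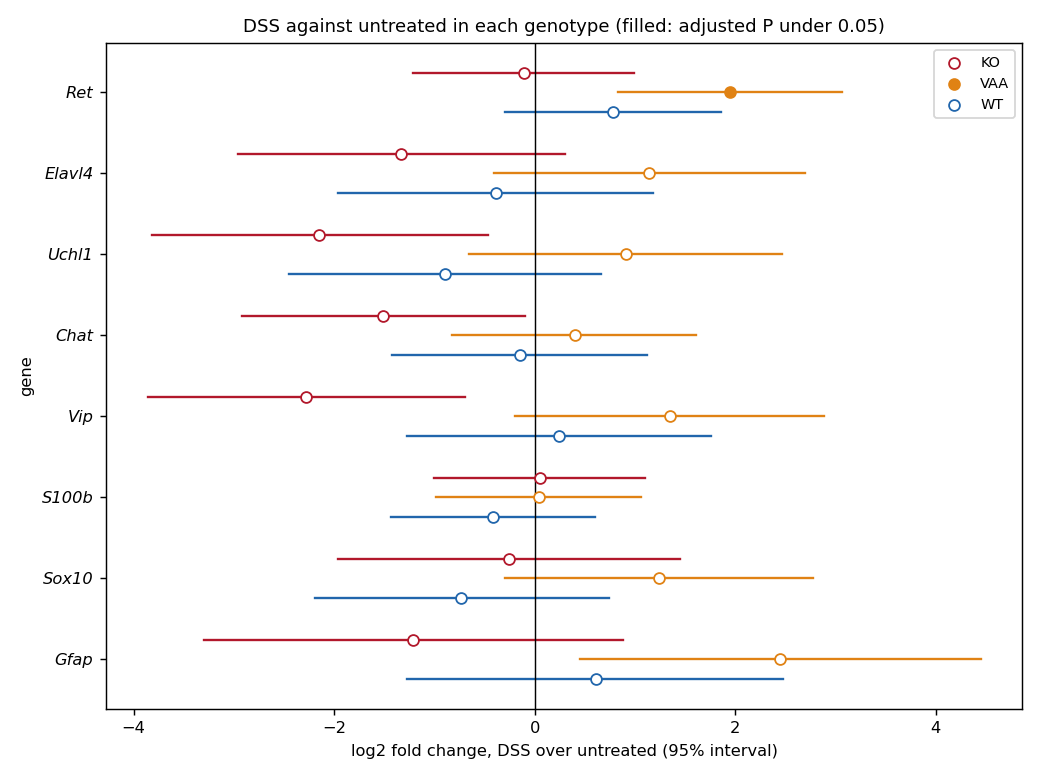
Log2 fold changes of DSS against untreated colon for each of the 8 genes in KO, VAA and WT, with 95% intervals. Filled points passed edgeR's adjusted threshold of 0.05, which *Ret* in VAA did at 1.95, while *Vip* stood at -2.28 in KO, 1.35 in VAA (0.13 without VAA DSS replicate 3) and 0.24 in WT.

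Whether DSS acted differently between genotypes was tested with interaction terms. The DSS effect in KO minus that in VAA, a comparison added after the data were seen, passed edgeR's adjusted threshold for 0 of the 8 genes, where 12 of all genes (0.0687%) did. Unadjusted, 6 of the 8 had p under 0.05, against 14.5% of all genes, and DESeq2 called 3 (*Uchl1*, *Vip* and *Gfap*), against 3.65%. *Vip* differed by -3.62 ± 0.99 on the log2 scale (edgeR adjusted p = 0.14), *Gfap* by -3.66 ± 1.26 (0.22), *Uchl1* by -3.06 ± 1.02 (0.21) and *Ret* by -2.06 ± 0.68 (0.20). Without VAA DSS replicate 2, 3 of the 8 passed edgeR's test, where 4.8% of all genes did. Leaving out VAA DSS replicate 3 instead gave 0 of the 8 by edgeR, where 0.507% of all genes did, and 4 had an unadjusted p under 0.05, against 14.4% of all genes. *Vip* was then at -2.41 ± 0.66, *Gfap* at -2.11 ± 0.85, *Uchl1* at -1.80 ± 0.68 and *Ret* at -1.61 ± 0.62 (edgeR adjusted p = 0.12 to 0.28). For KO minus WT, 0 of the 8 passed edgeR's test, where 0 of all genes did, and DESeq2 called 0, against 0.829% of all genes. Unadjusted, 1 of the 8 had p under 0.05 (*Vip*, -2.52 ± 0.98, edgeR adjusted p = 0.42), against 9.93% of all genes. For VAA minus WT, edgeR and DESeq2 each called 0 of the 8, and each called 0 of all genes. Unadjusted, 0 of the 8 had an edgeR p under 0.05, against 7.2% of all genes. These comparisons share their DSS and untreated libraries with those above.

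In untreated colon, with 2 libraries in each group, no test separated the genotypes for any of the 8 genes. KO against VAA (added after the data were seen), KO against WT and VAA against WT each gave 0 of the 8 by edgeR, 0 with an unadjusted p under 0.05 and 0 by DESeq2, and edgeR called 0% of all genes in each. Unadjusted, 2.29%, 2.01% and 1.33% of all genes had p under 0.05, in that order, and DESeq2 called 1, 9 and 2 of all genes. *Sox10* had the lowest value, at -1.57 ± 0.76 for KO against WT, with a 95% interval of -3.28 to 0.14. For *Sox10* and *S100b* both KO values lay below both WT ones, and for *Ret* and *Chat* below both VAA ones. For *Vip* both VAA values lay above both WT ones. The shares of all genes with these patterns are not given here. For KO against VAA, the 95% intervals were -1.81 to 1.48 for *Vip* and -2.53 to 1.01 for *Sox10*. The interval of *Vip* does not reach its value under DSS, and that of *Sox10* does.

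The muscle wall holds the myenteric ganglia, and its transcripts fell with treatment. Over 15 smooth muscle genes, such as *Actg2* (log2 -2.68 ± 0.28, edgeR adjusted p = 9e-06), 15 of 15 fell with DSS averaged over genotypes, against 20% of all genes. The median of the 15 was -2.10, against 0.01 over all genes. Their summed level after DSS was 851 to 2490 CPM in KO, 1020 to 3400 in VAA and 839 to 1310 in WT, against 4960 to 5470, 5560 to 7200 and 7590 to 8800 in untreated KO, VAA and WT. Within DSS, 0 of 15 passed edgeR's test between KO and VAA (median -0.19), where 15.4% of all genes did. Of the 15, 1 had an unadjusted p under 0.05 and DESeq2 called 0, against 28.2% and 17.9% of all genes. Against WT, 1 of 15, *Pcp4*, rose in KO (median 0.76), where 561 of 17477 genes did. There, 15 of 15 values were positive, as were 8492 over all genes. The median between KO and VAA was 0.49 without VAA DSS replicate 3, and 1 of 15 rose in KO, where 870 of 17361 genes did. VAA DSS replicate 3 had the highest smooth muscle sum of the 9 DSS libraries and KO DSS replicate 2 was the next to lowest.

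Scaling each library on these 15 genes gives the enteric levels relative to smooth muscle. On that scale, KO under DSS was lower than VAA for 5 of the 8 genes, namely *Gfap* (log2 -3.46), *Vip* (-3.41), *Uchl1* (-2.87), *Elavl4* (-2.55) and *Ret* (-2.46), where 2.45% of all genes were called either way and their median was 0.07. Against WT, 3 of the 8 were lower in KO, *Gfap* at -3.25, *Vip* at -3.01 and *Uchl1* at -2.08 (edgeR adjusted p = 5.6e-05, 0.00012 and 0.043), where 1.63% of all genes were called either way and their median was -0.50. For DSS against untreated, smooth muscle itself fell, which raises every gene on this scale. In WT, *Ret* was at 3.76 and *Uchl1* at 2.09 relative to smooth muscle, and in KO *Ret* was at 1.63 and *Vip* at -0.63. The medians of all genes were 1.82 in KO, 2.04 in VAA and 2.93 in WT, and 8 of the 8 genes in KO, 1 of the 8 in VAA (*S100b*) and 5 of the 8 in WT lay below them.

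**Figure D4:**
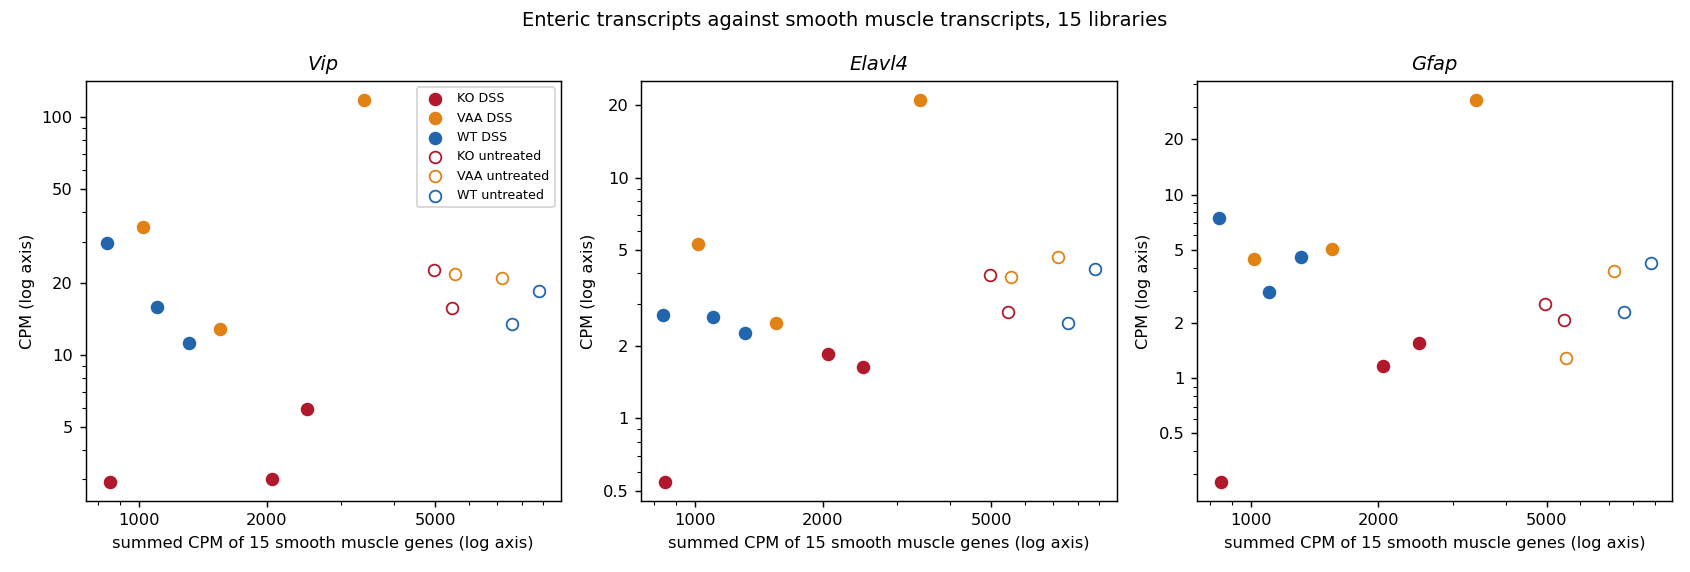
Levels of *Vip*, *Elavl4* and *Gfap* against the summed level of 15 smooth muscle genes in 15 libraries (CPM, both axes logarithmic), with DSS libraries filled and untreated ones open. The KO DSS libraries, at 851 to 2490 CPM of smooth muscle, overlap the WT and VAA DSS libraries on the horizontal axis and lie low on the vertical axis for *Vip*.

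Other genes of the same cells were read from lists made with earlier results of these data known, and the genes named for KO against VAA were picked by their result there. Of 16 pan-neuronal genes, 10 fell in KO against VAA under DSS by edgeR, with a median log2 fold change of -1.95. In that comparison 9.41% of all genes were called lower and 1051 of 17477 higher. *Prph*, a neuronal intermediate filament, was at -3.60 ± 0.70, and *Tubb3*, a neuronal tubulin, at -2.56 ± 0.52 (edgeR adjusted p = 0.0058 and 0.0072). The count was 6 of 16 without VAA DSS replicate 3, with a median of -0.94, where 6.6% of all genes were called lower and 870 of 17361 higher. In the fit of the 6 KO and VAA DSS libraries alone, 0 of 15 tested fell, where 1.82% of all genes did. Against WT, 0 of 16 passed edgeR's test (median -0.78), 3 had an unadjusted p under 0.05, and DESeq2 called 3. These stood against 5.67%, 21.9% and 10.7% of all genes. With DSS averaged over genotypes the same counts were 0, 2 and 2 (42.6%, 50.2% and 37.5% of all genes), where *Nefl* had the smallest p at -0.92 ± 0.35 (edgeR adjusted p = 0.05). The shares of all genes given here hold for the same comparisons of the lists below.

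Of 7 tested genes of cholinergic and excitatory neurons, 5 fell in KO against VAA (median -2.41), and 2 of 7 fell without VAA DSS replicate 3. In the fit of the 6 KO and VAA DSS libraries alone, 1 of 6 tested fell. *Tac1*, the substance P precursor, had 23.4, 20.4 and 26.1 CPM in KO DSS, 58.9, 62.7 and 73.5 in VAA DSS, and 40.2, 26.4 and 23.9 in WT DSS libraries. Untreated colon held 6.01 and 5.28 CPM of *Tac1* in KO, 8.01 and 8.51 in VAA, and 8.13 and 5.45 in WT. Every DSS library thus exceeded every untreated one, and KO lay below VAA without overlap. *Tac1* rose with DSS by 2.39 ± 0.14 averaged over genotypes and was lower in KO than in VAA, at -1.48 ± 0.20 (log2; edgeR adjusted p = 9e-08 and 0.001). *Slc5a7*, the choline transporter, rose by 0.82 ± 0.19, whereas *Calb2*, calretinin, fell by 1.46 ± 0.44 with DSS (edgeR adjusted p = 0.0041 and 0.017).

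Of 7 tested genes of inhibitory neurons and neuropeptides, 6 fell in KO against VAA (median -3.36), and 3 of 6 tested fell without VAA DSS replicate 3. In the fit of the 6 KO and VAA DSS libraries alone, only 2 passed the filter on low counts and 0 fell. *Nos1*, the neuronal nitric oxide synthase, had 7.36, 4.23 and 7.73 CPM in KO DSS, 30.3, 15.5 and 110 in VAA DSS, and 14.1, 20.2 and 16.4 in WT DSS libraries. The KO libraries lay below both other DSS groups, and *Nos1* fell by 3.00 ± 0.62 against VAA (log2, edgeR adjusted p = 0.0076). The peptide genes *Gal* and *Cartpt* stood at -4.39 ± 0.77 and -4.67 ± 0.99 (edgeR adjusted p = 0.0034 and 0.0083). Their counts were few, 286 and 135 over all 15 libraries, with *Cartpt* at 0 in 1 library. Both values include VAA DSS replicate 3. Against WT, 0 of 7 passed edgeR's test (median -1.83), 4 had an unadjusted p under 0.05, and DESeq2 called 0. With DSS averaged over genotypes the same counts were 0, 0 and 0.

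Of 10 tested glial genes outside the 8, 6 fell and 1 rose in KO against VAA (median -1.41), and without VAA DSS replicate 3 there were 5 and 2. In the fit of the 6 KO and VAA DSS libraries alone, 1 of 8 tested fell and 0 rose. The membrane protein gene *Gpm6b* was at -1.38 ± 0.19 against VAA, and the adhesion gene *L1cam* rose by 0.86 ± 0.16 (log2, edgeR adjusted p = 0.0011 and 0.0045). Against WT, 1 of 10 passed edgeR's test (median -0.55), 6 had an unadjusted p under 0.05, and DESeq2 called 3, while 4 of the 10 values were positive. The gene that passed was *Gpm6b*, at -1.27 ± 0.19 (edgeR adjusted p = 0.0044). *Erbb3*, the neuregulin receptor, held 71.1% of the counts of the glial list, and epithelial cells express it too, so the summed glial list was not used. With DSS averaged over genotypes, *Entpd2* and *Erbb3* fell at -0.54 ± 0.11 and -0.37 ± 0.10, and *Gpm6b* rose by 0.35 ± 0.12 (edgeR adjusted p = 0.0019, 0.0097 and 0.037).

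**Figure D5:**
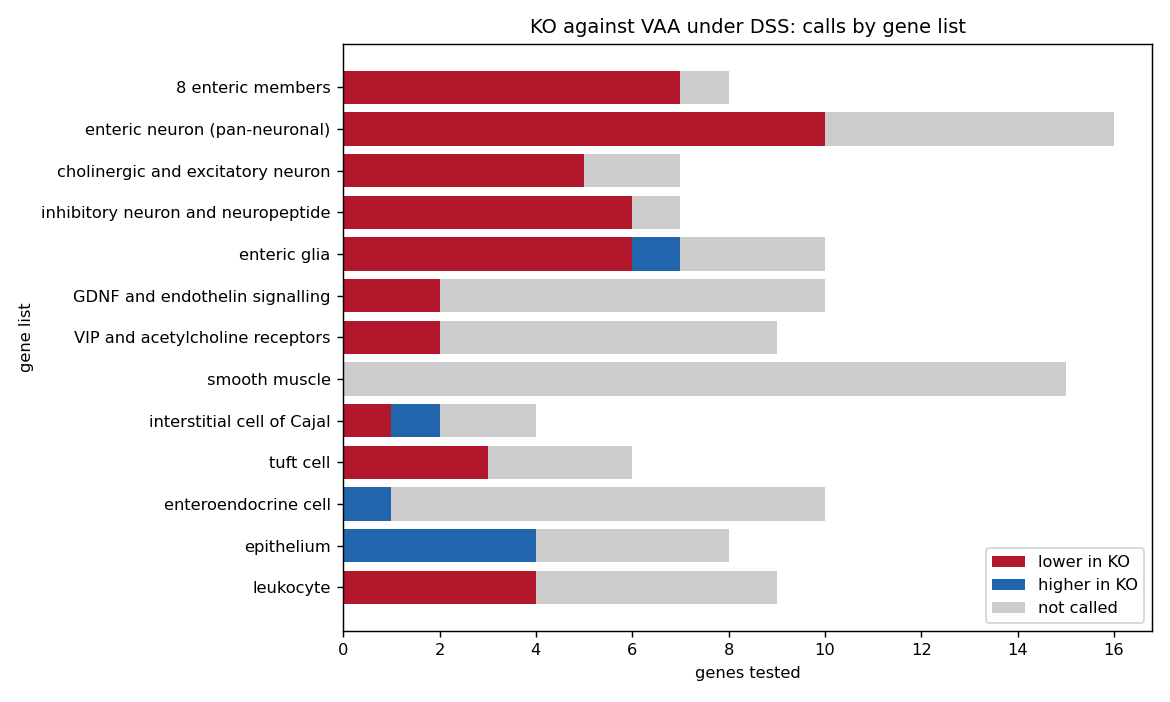
Number of tested genes of each list called lower, called higher or not called in KO against VAA under DSS by edgeR at an adjusted p under 0.05. In the neuronal lists 10 of 16, 5 of 7 and 6 of 7 genes were lower, against 0 of 15 smooth muscle genes and 9.41% of all genes tested. In the fit of the 6 KO and VAA DSS libraries alone, not drawn, these neuronal lists gave 0 of 15, 1 of 6 and 0 of 2, against 1.82%.

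The signalling partners of *Ret* and the receptors of the transmitters were read as well. Of 10 genes of GDNF and endothelin signalling, 2 fell in KO against VAA, where 9.41% of all genes did. These were *Gfra1*, the GDNF co-receptor of RET, at -2.48 ± 0.54 and the endothelin receptor gene *Ednrb* at -1.42 ± 0.33 (log2, edgeR adjusted p = 0.0094 and 0.013). The ligand genes *Gdnf*, *Nrtn*, *Artn* and *Pspn* were not called. *Gfra1* had 1.63, 0.614 and 1.63 CPM in KO DSS, 4.57, 3.58 and 13.8 in VAA DSS, and 1.82, 3.29 and 2.36 in WT DSS libraries, with KO below both other groups. With DSS averaged over genotypes, 0 of the 10 passed edgeR's test, 1 had an unadjusted p under 0.05, and DESeq2 called 0. *Gfra1* was at -0.80 ± 0.32 (edgeR adjusted p = 0.063) in the comparison in which *Ret* was higher.

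Of 9 tested genes of VIP and acetylcholine receptors and cholinesterases, 2 fell in KO against VAA (median -0.17), where 9.41% of all genes did. These were the VIP receptor gene *Vipr2* at -0.91 ± 0.29 and the PACAP receptor gene *Adcyap1r1* at -1.72 ± 0.40 (log2, edgeR adjusted p = 0.047 and 0.013). With DSS averaged over genotypes, 5 of 9 fell (median -0.83), where 20% of all genes were called lower. *Bche*, butyrylcholinesterase, fell at -2.51 ± 0.18, and the muscarinic receptor genes *Chrm3* and *Chrm1* at -1.76 ± 0.24 and -1.05 ± 0.12 (edgeR adjusted p = 3.7e-07, 6.6e-05 and 1.9e-05). Smooth muscle also carries *Chrm3* and *Vipr2*, and 15 of 15 smooth muscle genes fell in the same comparison. The part of muscle content in these changes was not tested.

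Markers of other cells differed between KO and VAA under DSS too, where 9.41% of all genes were called lower and 1051 of 17477 higher. Of 6 tested tuft cell genes, 3 fell (*Dclk1*, *Avil* and *Alox5*; median -0.91), and their list summed after DSS to 18.3 to 23.2 CPM in KO, 32 to 58.3 in VAA and 25.8 to 34.4 in WT. Of the defining tuft genes, *Trpm5* stood at -0.07 ± 0.34 and *Il25* was at 0 in 13 of 15 libraries. Of 10 enteroendocrine genes, 1 rose (*Insl5*; median 0.07), with sums of 203 to 243 CPM in KO, 126 to 239 in VAA and 155 to 165 in WT. Of 8 epithelial genes, 4 rose (median 0.47), with sums of 8250 to 9710 CPM in KO, 5250 to 7270 in VAA and 6090 to 6520 in WT. Of 9 leukocyte genes, 4 fell (median -0.74), with sums of 236 to 346 CPM in KO, 505 to 842 in VAA and 447 to 685 in WT. Of 4 interstitial cell of Cajal genes, *Etv1* fell and *Ano1* rose, with sums of 531 to 616 CPM in KO, 290 to 444 in VAA and 395 to 456 in WT. *Dclk1* held 60.8% of the counts of the tuft list and *Thbs4* 50% of those of the Cajal list, so each of these sums leans on 1 gene. In the fit without VAA DSS replicate 3, tuft genes called lower numbered 2, enteroendocrine genes higher 2, epithelial genes higher 2 and leukocyte genes lower 4, while of the Cajal cell genes 1 was called higher and *Etv1* was no longer called. That fit called 6.6% of all genes lower and 870 of 17361 higher. In the fit of the 6 KO and VAA DSS libraries alone, 3 of 9 leukocyte genes fell. There, 0 of the tuft, enteroendocrine, epithelial and Cajal cell genes were called, and of 16262 genes 296 were lower and 249 higher. The part of cell content in the fall of the enteric genes was not tested.

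The genes most like the neuronal and glial patterns were ranked by the root mean square difference of centred log2 CPM over the 15 libraries. To the mean of the 5 neuronal genes, the nearest were *Nos1* (0.19), *Kif5a* (0.25), *Nsg2* (0.25), *Obsl1* (0.26) and *Cnr1* (0.27), where the median of the genes ranked was 1.02. Among the 5 themselves, *Elavl4* lay closest to their mean (0.26), and *Uchl1* (0.36), *Chat* (0.37), *Vip* (0.42) and *Ret* (0.57) lay farther off. To the mean of the 3 glial genes, the nearest were *Rhoj* (0.23), *Klhl29* (0.24), *Tgfbr3* (0.24), *Col4a2* (0.25) and *Dysf* (0.26), where the median of the genes ranked was 0.86. *Sox10* (0.32), *S100b* (0.59) and *Gfap* (0.66) were themselves no closer to that mean than those genes. All points share the 15 libraries, VAA DSS replicate 3 among them.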

How the data were processed

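Total RNA from 15 mouse colon libraries was sequenced in paired reads, per the labels. The authors deposited an estimated count per gene, made with kallisto 0.46 on mm10 per the submitters' processing notes; no source used here gives the annotation, the summing to genes or strand handling. All values were whole (0 not whole), and 0 columns belonged to other samples. The authors also deposited log2 CPM values, which were recomputed from the counts to within 0.017 with a prior count of 2. Totals were 10561247 to 17541584 counts, and CPM below about 1 rests on few counts.

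Counts were scaled by TMM, filtered with filterByExpr (17477 of 32544 genes, 8053 being at 0 throughout) and tested with edgeR 4.0.16 (quasi-likelihood, 6 group means, Benjamini-Hochberg over all genes tested, called under 0.05) in R 4.3.3. Fold changes are log2, with SE from the F statistic and 95% intervals on 9 residual degrees of freedom; CPM is the count scaled to a common library total with the TMM factor. Scripts were tested on simulated data. Alternatives were DESeq2 1.42.0 size factors and its test, no filter, limma 3.58.1 on the deposited log2 values, only the groups compared, a replicate block, sex, smooth muscle scaling and each library left out. Leaving out both male libraries and 2 comparisons of KO with VAA were added after the data were seen.

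The members and 12 lists (123 genes) were chosen with earlier results of these data known. From each list the 3 genes with the smallest p for DSS averaged over genotypes could be named, plus the 5 nearest genes to each pattern and genes said in the text to be picked by their result. The main fit did not pair samples by replicate number.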

Additional observations from a re-analysis of the deposited data

How the results depend on the processing

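Direction held in most of what was recomputed. Without VAA DSS replicate 3, *S100b*, *Uchl1*, *Chat* and *Elavl4* changed sign for DSS in VAA. In that fit *S100b*, *Sox10* and *Gfap* did so for VAA against WT under DSS, and *S100b* for KO against VAA under DSS. None of these values was called in either fit. With smooth muscle scaling, 15 of the single-gene values for DSS against untreated changed sign, and 11 of these were called on that scale. The 11 were in WT *Elavl4* 2.59, *Uchl1* 2.09, *Chat* 2.77, *S100b* 2.48 and *Sox10* 2.25, in KO *Ret* 1.63, and averaged over genotypes *Elavl4* 1.82, *Uchl1* 1.31, *Chat* 1.62, *Vip* 1.86 and *S100b* 1.99. That scaling moves the median of all genes by 2.93 in WT, 1.82 in KO and 2.26 averaged, which by construction raises every gene. Under it the number of the 8 genes called for DSS was 2 in KO, 8 in VAA, 8 in WT and 8 averaged (76.4%, 85.1%, 94.8% and 96.4% of all genes), and it was 3 for KO against WT under DSS (1.63% of all genes), 2 for the KO minus WT interaction (0.687%) and 2 for KO minus VAA (0.435%).

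For KO against VAA under DSS (7 called), the count was 1 with only the groups compared (3.35% of all genes, against 15.4%), with 6 samples to estimate the spread. For KO against WT under DSS (0 called, 5.67% of all genes) it was 1 with no filter (4.02%), 3 with DESeq2 (10.7%), 1 with limma (7.02%), 4 with only the groups compared (17.3%) and 1 with the replicate block (6.15%). For DSS in KO (0, 10.7% of all genes) it was 1 with no filter (7.46%), 2 with DESeq2 (14.3%), 1 with limma (12.8%), 2 with only the groups compared (18.1%), 3 with the block (14.5%) and 1 with sex (6.79%). For DSS in VAA (1, 20.4%) it was 2 with no filter (13.6%), 2 with DESeq2 (21.1%) and 0 with only the groups compared (6.52%). For DSS in WT (0, 26.6%) it was 1 with only the groups compared (39.7%). For DSS averaged (1, 42.6%) it was 0 with limma (42%), 0 with sex (36.2%) and 0 without both male libraries (32.5%). DESeq2 called 3 in the KO minus VAA interaction (3.65%). The cause of these shifts was not tested.

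Leaving out each library in turn gave 4 to 7 for KO against VAA under DSS (lowest without KO DSS replicate 2), 0 to 3 for KO against WT under DSS, 0 to 4 for VAA against WT under DSS, 0 to 4 for DSS in KO, 0 to 3 for DSS in VAA, 0 to 0 for DSS in WT, 0 to 2 for DSS averaged and 0 to 3 for the KO minus VAA interaction, the others staying at 0. DSS in VAA gave 2 without VAA DSS replicate 1 (16.2% of all genes called) and 3 without VAA DSS replicate 2 (22.2%). DSS averaged gave 2 without VAA DSS replicate 3 (52.7%). That fit also gave 3 for KO against WT under DSS (15.6%) and 4 for DSS in KO (21.6%). Leaving out VAA DSS replicate 2 gave 4 for VAA against WT under DSS (4.87%) and 3 for the KO minus VAA interaction (4.8%). The 4 for KO against VAA under DSS came with 7.92% of all genes called.

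Replicate numbers are shared between groups in the labels. Deviations of same-numbered samples from their group means correlated from -0.16 to 0.31 over 33 pairs, 8 above 0.1, and 7 of 15 samples were closest to their own number. With 2 libraries in a group the deviations mirror each other, so this check cannot decide whether the numbers pair the samples. With the replicate block, *Ret* averaged over genotypes had an edgeR adjusted p of 0.074 and *Uchl1* one of 0.015. Precision is limited by 2 to 5 counts of *Chat* in KO DSS libraries and 2 libraries in each untreated group.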
